A study of Drosophila melanogaster with 12 samples.

Results

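The late response of Drosophila Kc cells to the steroid hormone 20-hydroxyecdysone (20HE) was read from the 4 arrays, of 12 in the series, that hold control RNAi cells after 48 h of 20HE and at 0 h. They were chosen by their titles: 2 biological replicates carried 20HE for 48 h and 2 carried none, and all 4 cultures received RNAi against beta-galactosidase. All 16637 transcripts with a FlyBase identifier were described. The other arrays, control RNAi cells at 3 h of 20HE and CP190 RNAi cells at 0, 3 and 48 h, were used for the estimate of the spread and for the comparisons named below. Total RNA was labelled with Cy3, and the labels' design text gives 8 probes for each gene. Kc is 1 established line of embryonic origin, so the replicates are cultures of a single line. The labels name no culture kept for 48 h without hormone, so 48 h of 20HE and 48 h more in culture cannot be told apart. The hormone dose is not given in the sources used here, and the extraction protocol also names a second line, Mbn2, while all titles name Kc.

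In insects 20HE enters the cell and binds a heterodimer of 2 nuclear receptors, the ecdysone receptor EcR and its partner Ultraspiracle. The bound receptor switches on a small set of early genes, many of them transcription factors, and these act on a far larger set of late genes. Kc cells have long served as a model of this cascade, since under the hormone they stop dividing, elongate and begin to make acetylcholinesterase. The deposited table does not pair its identifiers with gene names. The RefSeq gene table named 16 transcripts by 1 gene each and tied 28 more to several genes. EcR, usp, the early genes and the hemocyte and other cell type markers were not among them, so the cell identity given by the labels could not be checked on marker genes.

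Values were intensities on a linear scale, processed with RMA by the authors, and were analysed as log2. On the 4 arrays the median intensity lay between 1139 and 1210, and a random-sequence control, which should bind no transcript, between 413 and 422. Of all transcripts, 38.0 to 39.5% on each array lay below 1.5 times that control, here called near background. Background can add to the signal there and make measured changes too small. The brightest transcripts reached 64161 to 65523, and 247 to 270 on each array were above a log2 intensity of 15, where folds may be too small as well. RMA gives all arrays nearly the same distribution, so a change in total RNA per cell would not be seen, and fewer cells of a type and less RNA per cell cannot be told apart in such bulk samples.

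The late response reached many transcripts, mostly with small changes, and its largest changes were nearly all rises. At 48 h against 0 h, 4716 transcripts (28.3%) passed an adjusted p of 0.05 in limma's moderated test with Benjamini-Hochberg adjustment, 2173 (13.1%) higher and 2543 (15.3%) lower. The median size of a called change was 0.55 on the log2 scale, and called sizes ran from 0.28 at the 5th percentile to 2.02 at the 95th. The smallest change called was 0.21 and the largest not called was 0.84, so all 851 transcripts with a fitted change of at least 2-fold passed. Over all transcripts the median change was -0.037, with a 5th percentile of -0.63 and a 95th percentile of 0.80. The middle of the distribution thus lay slightly below 0 while its upper tail reached further. The balance of rises and falls among all calls depended on the arrays and the scaling: 46.1% of calls were rises as deposited, 31.2% (1767 of 5661) once arrays were centred on their medians, with a median change of -0.121, and 45.9 to 53.9% when 1 of the 4 arrays was left out. The falls numbered 1476 without the first 48 h replicate, 1639 without the second and 1627 without the second 0 h replicate.

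Direction changed with size. Among calls with a log2 change of 0.25 to 0.5, 755 were rises and 1217 were falls, and 63.1% of all transcripts with a change of that size passed the test. Between 0.5 and 1 there were 770 rises and 1061 falls, and 97.1% of all transcripts with a change of that size passed the test. Between 1 and 2 the rises led, with 403 against 208 falls. At 4-fold or more there were 212 rises (1.27% of all transcripts) and 28 falls (0.168%), and at 8-fold or more 64 and 2. A change of 16-fold or more was seen in 16 transcripts, all of them rises, 7 of which reached 32-fold. Rises made up 72.3% of all calls of at least 2-fold, 615 (3.70% of all transcripts) against 236 falls (1.42%). Unlike the balance of all calls, this one kept its direction in every alternative fit, with rises at 64.7 to 75.7% of calls of at least 2-fold and 84.5 to 88.3% of calls of at least 4-fold. The low ends came from centring each array, for 2-fold, and from subtracting the random control, for 4-fold. That subtraction also raised the counts, to 1017 rises and 509 falls of at least 2-fold.

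**Figure D1:**
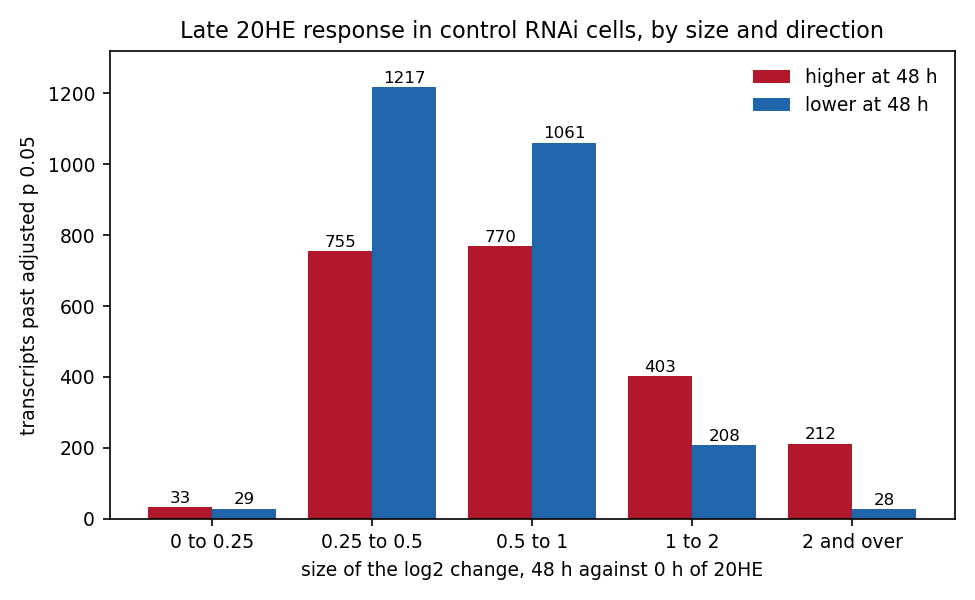
Number of transcripts past adjusted p 0.05 (vertical axis) in 5 classes of the size of the log2 change between 48 h and 0 h of 20HE (horizontal axis), in control RNAi cells. Falls outnumber rises from 0.25 to 1, with 1217 against 755 and 1061 against 770, while rises outnumber falls above 1, with 403 against 208 and 212 against 28.

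The share of transcripts called rose with the starting level, and the share of rises among them fell. Transcripts were grouped by their mean level at 0 h as a multiple of the random control. Near background, below 1.5 times, lay 6572 transcripts, of which 8.44% were called. Of those called, 472 rose and 83 fell. From 1.5 to 4 times, 35.1% of 2650 were called, 516 higher and 415 lower. Between 4 and 16 times the called share was 42.7% of 4323, with 759 rises and 1086 falls. Above 16 times it was 44.8% of 3092, with 426 rises and 959 falls. The share of rises among calls thus fell from bin to bin, 85.0%, 55.4%, 41.1% and 30.8%, and the median change went with it, at -0.016, -0.047, -0.073 and -0.135. The 0 h arrays enter both the level and the change, which favours such a slope. Grouping by the CP190 RNAi cells at 0 h, whose arrays do not enter the change, gave 81.6%, 55.1%, 40.0% and 34.5%. Grouping by the mean level on all 12 arrays gave a flatter course, 69.5%, 55.1%, 41.4% and 39.2%.

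Large rises and large falls began at different levels. The 615 transcripts at least 2-fold higher had a median intensity of 4928 at 48 h and 1092 at 0 h, and 151 of them (24.6%) were near background on both 0 h arrays. The 236 at least 2-fold lower had a median of 2257 at 48 h and 6057 at 0 h, and 14 (5.93%) were near background on both 48 h arrays. For the 212 rises of at least 4-fold the medians were 6121 at 48 h and 793 at 0 h. For the 28 falls of that size they were 837 and 5018. A transcript near background has no room to fall, and a transcript close to the top of the range has little room to rise. The part of these limits in the excess of large rises was not tested. By starting level, the changes of at least 2-fold were 160 rises and 0 falls near background, 223 and 16 from 1.5 to 4 times the random control, 191 and 113 from 4 to 16 times, and 41 and 107 above 16 times. The excess of falls at the top depended on the grouping. Above 16 times there were 57 rises and 107 falls when grouped by CP190 RNAi cells at 0 h, and 78 and 80 by all 12 arrays.

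**Figure D2:**
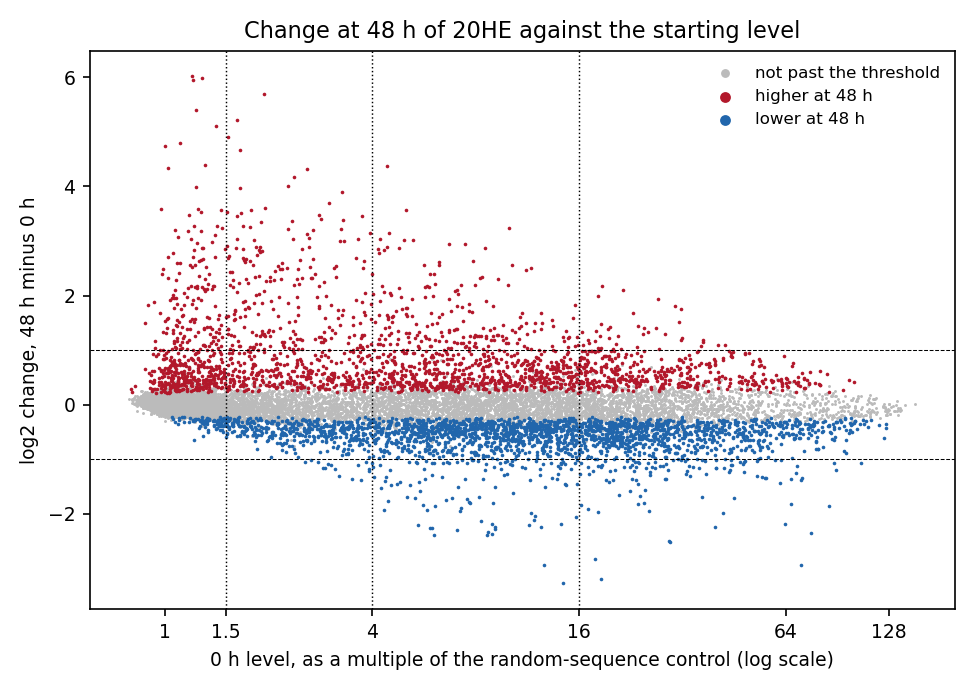
Log2 change between 48 h and 0 h of 20HE (vertical axis) against the 0 h level as a multiple of the random-sequence control (horizontal axis, log scale), with 1 point for each of the 16637 transcripts; dotted lines mark 1.5, 4 and 16 times the control and dashed lines a 2-fold change. Rises above 4 on the log2 scale begin mostly below 4 times the control, and the falls of 4-fold or more begin above 4 times the control.

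Transcripts crossed from background to clear signal more often than the other way. Both 48 h arrays were over 4 times the random control and both 0 h arrays near background for 70 transcripts, while 5 made the opposite passage. Of the 70, 9 were over 16 times the control at 48 h. The set of well expressed transcripts changed little in size: 7396 were over 4 times the control on both 48 h arrays and 7218 on both 0 h arrays, and 6862 were so at both times. At the other end, 5819 transcripts were near background on all 4 arrays.

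Replicates were close, and the 48 h arrays were closer to each other than the 0 h arrays. The correlation of log2 levels between replicates was 0.997 at 48 h and 0.994 at 0 h. The median SD of a transcript was 0.065 at 48 h and 0.083 at 0 h on the log2 scale (n = 2 each), and 41.6% of transcripts had the larger SD at 48 h. Near background the median SDs were alike, 0.057 at both times, and the gap lay among expressed transcripts, with 0.068 at 48 h and 0.116 at 0 h from 4 to 16 times the random control. Replicates were at least 1.5-fold apart for 86 transcripts at 48 h and 221 at 0 h. At least 2-fold differences between replicates ran the other way, with 16 at 48 h and 6 at 0 h. The limma standard error of a 48 h change had a median of 0.0999 and a 95th percentile of 0.173.

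Changes taken within each replicate number, the 48 h array minus the 0 h array of the same number, share no array with each other. Across the 16637 transcripts, which are not independent, they correlated by 0.905 (Spearman's rho 0.712). Their medians were -0.040 and -0.034. A 2-fold change was measured in replicate 1 for 805 transcripts and in replicate 2 for 1019, for 695 the same way in both and for 0 in opposite ways. All 212 rises and all 28 falls of at least 4-fold were at least 2-fold in both replicates. Of the 615 rises of at least 2-fold, 528 (85.9%) reached 2-fold in both replicates, and of the 236 falls 167 (70.8%). The 48 h and 0 h replicates did not overlap for 61.6% of all transcripts, and for all 4716 of those called. Calls and size groups were drawn from these same 4 arrays. Such counts among their members follow largely from the choice and are no separate check of the changes.

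**Figure D3:**
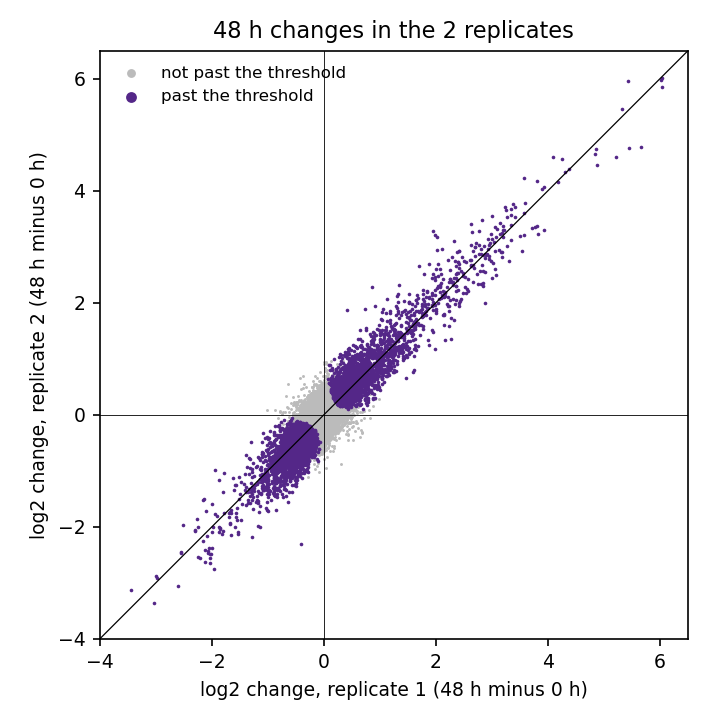
Log2 change between 48 h and 0 h of 20HE in replicate 1 (horizontal axis) and replicate 2 (vertical axis), 1 point for each transcript, with the line of equal change. The cloud follows the line in both directions, with a correlation of 0.905, and no transcript changed at least 2-fold in opposite ways.

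Transcripts at least 1.5 times the random control and at most a log2 intensity of 15 on all 4 arrays were taken as measured on both sides. Among those called without overlap of the replicates, the largest changes gave 2 rises and 2 falls to describe, none with a gene name here. The 48 h and 0 h arrays made this choice, so the p-values at 48 h describe the 4 transcripts and are no separate support. FBtr0083164 had intensities of 21315 and 14747 at 48 h, against 725 and 671 at 0 h. Its log2 change was 4.67 ± 0.27 (SE, 25.4-fold, limma adjusted p = 1.6e-07). It began at 1.65 times the random control, so background may make this fold too small. FBtr0070451 had 20413 and 23293 at 48 h, against 1031 and 1154 at 0 h. It rose by 4.32 ± 0.19 (20.0-fold, adjusted p = 2.26e-08). Both 48 h arrays lay far above both 0 h arrays in each case, and the 48 h replicates of FBtr0083164 stood further apart than those of FBtr0070451. At 3 h the intensities were 635 and 602 for FBtr0083164 and 1045 and 1131 for FBtr0070451, and neither differed from 0 h past the threshold (log2 changes of -0.17 and -0.0049, adjusted p = 0.9995 for both). At 48 h both were higher than at 3 h by direct test (log2 differences of 4.84 and 4.33, adjusted p = 1.44e-07 and 2.69e-08). The 48 h arrays by which they were chosen enter that test too.

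FBtr0073376 was among the brightest transcripts before the hormone. Its intensities were 3573 and 4231 at 48 h, against 28023 and 31950 at 0 h. It fell by 2.94 ± 0.14 on the log2 scale (adjusted p = 4.24e-08), so that the 0 h level was 7.70 times the 48 h level. FBtr0079532 had 857 and 847 at 48 h, against 7019 and 8723 at 0 h, and fell by 3.20 ± 0.14 (adjusted p = 1.77e-08). Its 48 h level was 2.06 times the random control, so background may make this fold too small as well. After subtracting the random control its change was -4.08, and those of FBtr0083164 and FBtr0070451 were 5.98 and 5.001. The groups of both transcripts were far apart. At 3 h FBtr0079532 stood at 5475 and 4228, below its 0 h level (log2 change -0.70, adjusted p = 0.0292), while FBtr0073376 stood at 23898 and 27473 (log2 change -0.22, adjusted p = 0.9995). The 3 h call of FBtr0079532 was lost without the second 0 h replicate (-0.54, adjusted p = 0.202), without either 48 h replicate, which takes part only in the estimate of the spread (0.0578 for both), and after subtracting the random control (0.194). CP190 RNAi cells, measured on other arrays, gave the 4 transcripts log2 changes at 48 h of 3.70, 4.16, -2.94 and -3.07, in the order given. None of the 4 differences between the arms passed the test (adjusted p of 0.367 to 0.9999), and that of FBtr0083164, -0.97 ± 0.38, passed with the replicate number as a block (adjusted p = 0.00939). For FBtr0083164 the arms were alike at 48 h and apart at 0 h. CP190 RNAi cells had intensities of 21312 and 14546 at 48 h, against 1739 and 1055 at 0 h.

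**Figure D4:**
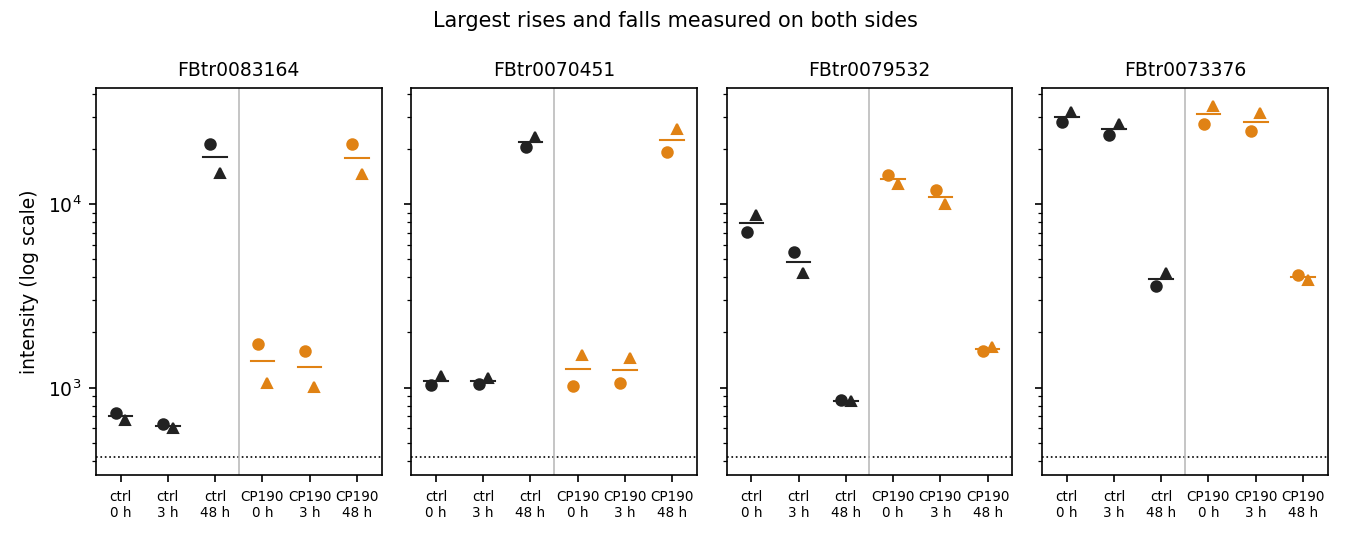
Intensity (vertical axis, log scale) of the 2 largest rises and 2 largest falls measured on both sides, on each of the 12 arrays at 0, 3 and 48 h of 20HE, control RNAi cells in black and CP190 RNAi cells in orange. Circles are replicate 1, triangles replicate 2, short lines group means and the dotted line the mean random control; in control cells the 3 h arrays stay near the 0 h arrays except for FBtr0079532.

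Of the 16 transcripts named by 1 gene, 3 passed the test at 48 h, 1 higher and 2 lower. That is 18.8%, beside 28.3% of all transcripts. Their median change was 0.048, beside -0.037 for all. In 10 of the 16 the 48 h and 0 h replicates did not overlap, beside 61.6% of all transcripts. The genes are few and were named only because the RefSeq table lists their transcript, so they stand for no pathway.

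A pair of the 16 genes encode transporters. NaPi-III, which encodes a phosphate cotransporter, had intensities of 4338 and 3949 at 48 h, against 8097 and 10335 at 0 h. It fell by 1.14 ± 0.12 (adjusted p = 1.79e-05), a larger change than that of 96.0% of transcripts, and the replicates did not overlap. At 3 h it was at 8979 and 7780, and the 48 h level was lower than that by 1.01 on the log2 scale (a log2 difference of -1.01, adjusted p = 5.26e-05). Fatp1, the gene of a transport protein for fatty acids, had 6132 and 6834 at 48 h, against 4571 and 6239 at 0 h, so its groups overlapped. Its log2 change of 0.28 ± 0.13 did not pass (adjusted p = 0.16), but did with the replicate block (0.0372). The value turned on the 0 h replicates, with 0.50 (adjusted p = 0.0145) without the second and 0.053 (adjusted p = 0.816) without the first. Its 3 h arrays, at 12954 and 13859, were above both levels, and the 48 h level lay below them by direct test (log2 difference -1.05, adjusted p = 1.34e-04).

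The nucleolus and the TORC1 pathway were each represented by few genes. The gene sle, slender lobes, encodes a nucleolar protein. It had 17792 and 19748 at 48 h, against 28541 and 28894 at 0 h, and fell by 0.62 ± 0.12 (adjusted p = 0.002), with both 48 h arrays well below both 0 h arrays. The genes mio and Wdr24 encode subunits of the GATOR2 complex, which acts on the growth kinase TORC1. For mio the intensities were 2354 and 2562 at 48 h, against 2024 and 2084 at 0 h, a rise of 0.26 ± 0.081 (adjusted p = 0.0321). That call did not hold without either 0 h replicate or the second 48 h replicate (adjusted p of 0.0759 to 0.21), nor after centring each array (0.111), with only the 4 arrays compared (0.0914) or with a trended robust prior (0.077). Wdr24 had 1348 and 1338 at 48 h, against 1268 and 1587 at 0 h, with a log2 change of -0.079 ± 0.13 (adjusted p = 0.715). The 0 h replicates of Wdr24 enclosed both 48 h values.

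None of the 4 genes of chromatin passed limma's test after adjustment. An unadjusted p under 0.05 was found for 3 of them, and for 37.3% of all transcripts. HDAC3, a histone deacetylase gene, had 5622 and 5863 at 48 h, against 6473 and 7266 at 0 h, a log2 change of -0.26 ± 0.11 (adjusted p = 0.0976). It passed with the replicate block (0.0128) and after centring each array (-0.34, adjusted p = 0.0223). The chromatin remodeller gene kis had 15937 and 15567 at 48 h, against 17986 and 18356 at 0 h (log2 change -0.21 ± 0.087, adjusted p = 0.104), and passed after centring (-0.29, adjusted p = 0.023). The histone H4 replacement gene His4r had 31957 and 30340 at 48 h, against 27241 and 27779 at 0 h (log2 change 0.18 ± 0.073, adjusted p = 0.0923). In each of the 4 genes, SuUR included, the 48 h and 0 h replicates did not overlap, beside 61.6% of all transcripts. SuUR, which suppresses replication of heterochromatin in polytene cells, had 5573 and 6284 at 48 h, against 5515 and 4737 at 0 h (log2 change 0.21 ± 0.11, adjusted p = 0.174). Its 2 replicates gave unlike changes, 0.015 and 0.41.

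The genes with structural, ubiquitin-related or other roles did not pass the test. LanA, a laminin chain of the basement membrane, had 43584 and 45099 at 48 h, against 42017 and 41605 at 0 h, above a log2 intensity of 15 throughout (log2 change 0.085 ± 0.077, adjusted p = 0.484). The membrane skeleton gene alpha-Spec had 18771 and 18103 at 48 h, against 16612 and 18640 at 0 h (log2 change 0.067 ± 0.092, adjusted p = 0.663). Uba1, the ubiquitin-activating enzyme, had 36991 and 39323 at 48 h, against 39166 and 39567 at 0 h (log2 change -0.046 ± 0.075, adjusted p = 0.725). For rdx, an adaptor of a Cullin-3 ubiquitin ligase, the values were 8261 and 7320 at 48 h, against 8550 and 7283 at 0 h (log2 change -0.021 ± 0.14, adjusted p = 0.935). CG16974 had 7375 and 8562 at 48 h, against 6723 and 7073 at 0 h (log2 change 0.20 ± 0.096, adjusted p = 0.145). At the dim end, fend had 622 and 686 at 48 h, against 593 and 596 at 0 h (adjusted p = 0.28), and CG31178 had 572 and 637, against 579 and 605 (adjusted p = 0.881), starting at 1.41 and 1.40 times the random control. None of the 16 genes differed between CP190 RNAi and control RNAi cells in its 48 h response past the threshold, which 2.18% of all transcripts passed, and 1 had an unadjusted p under 0.05.

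**Figure D5:**
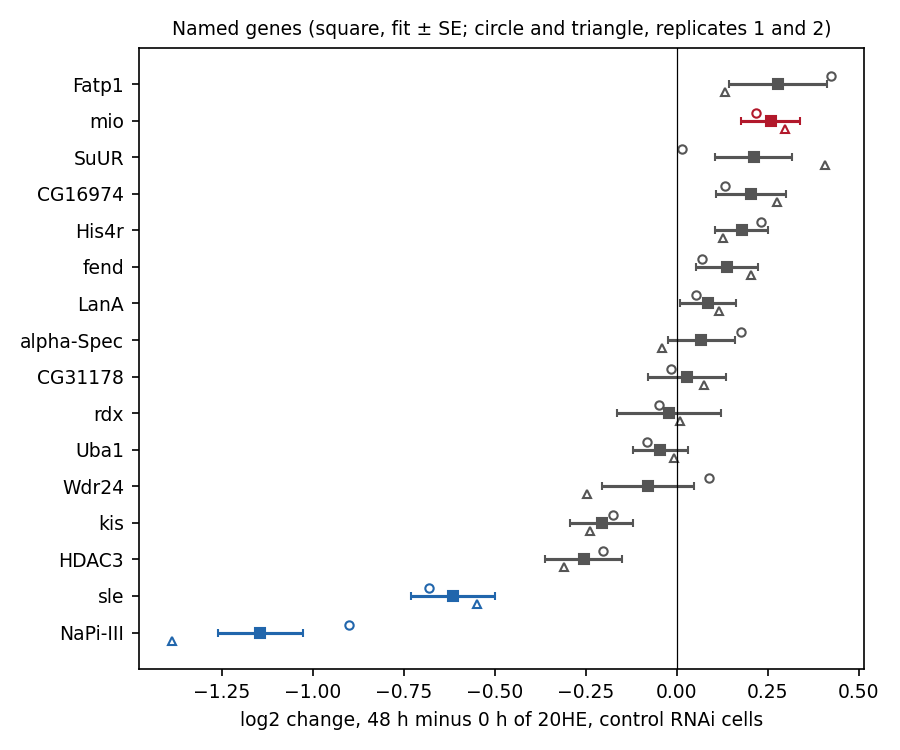
Log2 change between 48 h and 0 h of 20HE in control RNAi cells (horizontal axis) for the 16 transcripts named by 1 gene, as the fitted value with its limma SE (squares) and as the change in replicate 1 (circles) and replicate 2 (triangles). Coloured genes passed adjusted p 0.05: NaPi-III and sle lie left of 0 and mio right of it, and the fitted values of the other 13 lie within 0.3 of 0.

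A further 28 transcripts were tied to several genes, 27 of them because the RefSeq table lists them as messages with an upstream and a main reading frame, each counted as a gene. Such a value belongs to the message and to neither gene alone. Of these 28, 12 fell, 4 rose and 12 did not pass, and 22 had a change below 0. Without the second 0 h replicate 7 fell and 0 rose, without the first 48 h replicate 8 and 0, without the second 48 h replicate 11 and 1, without the first 0 h replicate 13 and 2, and after centring each array 17 fell and 1 rose. With the replicate block 17 fell and 4 rose. Their median change was -0.27, beside -0.037 for all transcripts. They were bright, with 26 of 28 over 4 times the random control at 0 h, and in the bins from 4 to 16 and above 16 times 25.1% and 31.0% of all transcripts fell, beside 42.9% of the 28. The list was not set in advance, and the examples that follow were chosen after their values were seen.

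The largest fall among them was that of the message shared by CG7950 and Rpp14a, the second a subunit of the RNA-processing enzymes RNase P and RNase MRP. It had 1922 and 1975 at 48 h, against 3545 and 4310 at 0 h, and fell by 1.004 ± 0.11 on the log2 scale (adjusted p = 3.76e-05). The message of CG45089 and ND-MNLL, a subunit of mitochondrial complex I, had 2915 and 3205 at 48 h, against 5572 and 4995 at 0 h, and fell by 0.79 ± 0.16 (adjusted p = 0.00353). That of Mvk, mevalonate kinase, and CG33672 had 4535 and 5091 at 48 h, against 7498 and 7216 at 0 h, and fell by 0.61 ± 0.12 (adjusted p = 0.00251). Each of these had both 48 h arrays below both 0 h arrays. The highest rise was that of the message of CG6191 and CG45088, with 16052 and 14853 at 48 h, against 11687 and 11056 at 0 h (log2 change 0.44 ± 0.12, adjusted p = 0.0169). That call was lost without the second 0 h replicate (0.0906), without the first 48 h replicate (0.115) and after subtracting the random control (0.0522). In CP190 RNAi cells 9 of the 28 fell and 1 rose at 48 h, with a median change of -0.20. Of all transcripts 13.9% fell and 12.6% rose there. None of the 28 differed between the arms in its 48 h response past the threshold, which 2.18% of all transcripts passed.

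CP190 RNAi cells at 48 h and 0 h share no array with the control cells and were used to read the sized groups a second time. Of the 615 transcripts at least 2-fold higher in control cells, 565 (91.9%) also rose in CP190 RNAi cells, where 12.6% of all transcripts rose, and 1 fell. Of the 236 at least 2-fold lower, 226 (95.8%) also fell, where 13.9% of all did, and none rose. Those shares of all include transcripts near background, few of which were called in control cells. The median log2 changes of the 615 were 1.46 in CP190 RNAi cells and 1.60 in control cells, and those of the 236 were -1.11 and -1.23. Choosing members by their size in control cells favours the larger value there. In CP190 RNAi cells 449 of the 615 and 156 of the 236 were again at least 2-fold.

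At 3 h of 20HE the median level of the same groups lay nearer to that at 0 h than to that at 48 h. Each median level lay somewhat toward its 48 h level, and a median does not show how single members changed. The 0 h arrays took part in choosing the groups, which favours such a shift, so it is no sign of an early response. The median log2 change of members from 0 h to 3 h was 0.038 for rises of at least 2-fold and 0.059 for those of at least 4-fold. For falls it was -0.11 and -0.25. These changes share the 0 h arrays with the choice too. The 615 late rises had median intensities of 1092 at 0 h, 1289 at 3 h and 4928 at 48 h, and the 236 late falls 6057, 5516 and 2257. For the 212 rises of at least 4-fold these were 793, 925 and 6121, and for the 28 falls of that size 5018, 4104 and 837.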

How the data were processed

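Per the submitters' processing notes the authors processed the arrays with RMA, which corrects background, equalises array distributions and summarises probes. Its version and the genome build are not stated by the sources read here. The deposited table holds 1 intensity on a linear scale per transcript and array, for 16637 transcripts and 1 random-sequence control that no test included. Groups come from the sample titles. Log2 values were fitted here with limma 3.58.1 in R 4.3.3 (lmFit, eBayes) as 6 group means over 12 arrays, with 6 residual degrees of freedom, no pseudocount and no filter. Two-sided p-values were adjusted by the Benjamini-Hochberg method over all 16637 transcripts within each comparison. The fit was tested on simulated data with 200 changed transcripts per size, far fewer than were called here. Changes of 0.25, 0.5 and 1 on the log2 scale were recovered for 0%, 51% and 94.5% of these. Errors of log2 changes are limma SE, and precision is limited by the number of arrays.

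The same replicate numbers stand in every group. Differences between replicates 1 and 2 correlated by 0.147 to 0.608 across the 15 pairs of groups, all above 0.1, so the numbers were taken to pair the samples. The lowest, 0.147, was that of control RNAi cells at 0 h and 48 h. The main fit left this pairing out, and its counts and p-values are those given unless the block is named. The labels do not say what they share. For transcripts described one by one, values with the replicate block stand where they change a call.

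Identifiers were matched to synonyms in the RefSeq gene table of assembly GCF_000001215.4 (44 matched, 16 to 1 gene). By rule all 16 were described. Of unnamed transcripts, those 2 with the largest called rise and 2 with the largest called fall are printed, among transcripts measured on both sides without overlap of the replicates. Members, lists and rules were chosen with earlier results of these data known. Of the pathway and marker lists, no more than 2 members each could be named, so no list was counted. The 4 genes of chromatin counted above are a grouping made for the text and are none of these lists. HDAC3 and kis stood on the chromatin list, His4r on the histone list and SuUR on none. Alternatives were the replicate block, only the 4 arrays compared, centring, quantile normalisation, leaving out transcripts near background on all 4 arrays, a pseudocount of 100, subtracting the random control with a floor of 50, a trended robust prior, leaving out each of the 4 arrays, and other groupings of the starting level.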

Additional observations from a re-analysis of the deposited data

Results flagged for a closer look

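Among transcripts with large late changes in control cells, some responded by a different amount in CP190 RNAi cells, by limma's test of the difference of the 2 responses. This held for 117 of the 615 that were at least 2-fold higher at 48 h (19.0%) and for 20 of the 236 that were at least 2-fold lower (8.47%), beside 2.18% of all transcripts. The members were chosen by the size of their change in control cells, which enters the difference, so the shares are given as a description. The cause was not tested.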

How the results depend on the processing

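The count of calls stayed within 1.5 times of 4716 in every alternative, from 3201 without control_48h replicate 1 to 5993 with the replicate block (2633 higher, 3360 lower). Falls numbered 3894 after centring each array, and 1476 to 2409 with 1 array left out. Subtracting the random control, 1 value per array, with a floor of 50 gave 1017 rises and 509 falls of at least 2-fold and 476 and 87 of at least 4-fold. Removal of background and a widening of dim ratios by the subtraction itself cannot be told apart here. The median change of -0.037 became -0.121 after centring, -0.032 with the pseudocount, -0.060 without transcripts near background and 0 after subtraction, and ran from -0.038 to -0.032 with 1 array left out. The share called at the lowest starting level was 8.44% below 1.5 times the random control. It was 5.08% in the lowest of 5 equal groups, a group that reaches less far above background.

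Both rises, both falls, NaPi-III and sle kept their 48 h calls under all alternatives. The replicate block changed no call at 48 h against 0 h among the 20 transcripts described one by one, other than those of Fatp1 and HDAC3. Alternatives for the messages of several genes and for 3 h changes were added after seeing the data. Only changes that did not pass turned sign. These were alpha-Spec (-0.017 after centring, and -0.016 to 0.15 with 1 array left out), CG31178 (-0.055 after centring, -0.0034 with quantile normalisation, and -0.049 to 0.11 with 1 array left out), rdx (-0.14 to 0.095), Wdr24 (-0.24 to 0.083) and, at 3 h, FBtr0070451 (-0.086 to 0.076). Among differences between the arms they were FBtr0079532 (-0.024 to 0.29), NaPi-III (-0.019 to 0.33) and FBtr0073376 (0.017 after centring, 0.0042 after subtraction, and -0.12 to 0.12 with 1 array left out). The cause was not tested. Of transcripts with a fitted change of 0.25 to 0.5, 63.1% passed with 2 arrays a group. The fitted change enters the test, so this is no rate of detection for true changes of that size. Changes near background may be understated.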
